A study of Mus musculus with 4 samples.

Results

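Chemokines and their receptors were followed in the ileum of mice given metformin, the oral drug for type 2 diabetes. Genes were taken as members by name alone: every gene on the array whose RefSeq symbol is Ccl, Cxcl, Ccr, Cxcr or Ackr plus a number, and Cx3cl1, Cx3cr1, Xcl1 and Xcr1. This gave 55 genes, 33 of them ligands and 22 receptors, among 20866 genes with a symbol on the array. A further gene of that form in the gene table, Cxcl11, matched no probe. Of the 55 genes, 40 (23 ligands and 17 receptors) were tested, since their signal was well above background in both samples treated with metformin or in both controls. The other 15 are listed as at background. The measured tissue was total ileal RNA of male C57BL/6J mice aged 10 weeks, with 2 samples from mice that received metformin by mouth at 1000 mg/kg and 2 from control mice. The labels give neither a vehicle nor the length of treatment, and name no allele or other agent. They do not say whether each sample is a different animal, so p-values describe only how these 4 samples spread, which could be technical variation.

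Chemokines are small secreted proteins that bind to matrix and cell surfaces and guide leukocytes along a gradient, through receptors that couple to G proteins. The 4 atypical receptors, Ackr1 to Ackr4, bind chemokines without that coupling, and take them up, degrade them or carry them across endothelium, so that they shape the gradient. In the small intestine Ccl25 from the epithelium draws Ccr9-bearing lymphocytes, Cxcl13 organises B cell follicles through Cxcr5, and Cxcl12 from stromal cells signals through Cxcr4 and is removed by Ackr3.

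A level is given as log2 signal minus the 75th percentile of its array, and a difference as metformin minus control on that log2 scale with the standard error of the limma fit (n = 2 arrays per group throughout). Levels of different genes come from different probes and were not compared with each other. No gene of 21648 passed an adjusted p of 0.05 in limma (0.0% in either direction), and the smallest adjusted p, over all genes and over the members, was 0.9996. At an unadjusted p under 0.05 the fit had 347 genes. The arrays shared 1 slide and 1 scan, with the metformin samples at positions 3 and 4 and the control samples at positions 1 and 2, so position and treatment cannot be told apart. The metformin 1 array stood apart in gut region: its 6 ileal enterocyte markers had a median 2.00 below the control mean and its 6 proximal markers a median 2.35 above it, and Fabp6, which carries bile acids in ileal cells, read 4.16 and 8.70 in metformin samples, against 8.94 and 8.29 in controls. Sample numbers also ordered the arrays: the first principal component (61.3% of the variance) put metformin 1 with control 1.

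The regulatory sequence in front of the genes that the results turn on is shown first, from RefSeq's promoter windows on build GRCm38.p6, which hold 250 bases before and 50 after each annotated start. Such a window was at hand for 41 of the 55 genes. The whole windows of Ackr3 (chr1:90203730-90204029, plus strand) and Cxcl12 (chr6:117168285-117168584, plus strand) are printed because both were lower with metformin and belong to the same ligand and scavenger system. Capitals mark the GC box form GGGCGG on either strand and the TATA form TATAAA.
Ackr3: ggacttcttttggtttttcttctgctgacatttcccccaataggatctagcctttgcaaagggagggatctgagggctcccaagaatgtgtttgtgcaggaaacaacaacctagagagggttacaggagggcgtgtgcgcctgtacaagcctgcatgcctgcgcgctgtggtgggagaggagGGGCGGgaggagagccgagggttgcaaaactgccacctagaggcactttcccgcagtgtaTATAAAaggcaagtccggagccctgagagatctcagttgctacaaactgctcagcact
Cxcl12: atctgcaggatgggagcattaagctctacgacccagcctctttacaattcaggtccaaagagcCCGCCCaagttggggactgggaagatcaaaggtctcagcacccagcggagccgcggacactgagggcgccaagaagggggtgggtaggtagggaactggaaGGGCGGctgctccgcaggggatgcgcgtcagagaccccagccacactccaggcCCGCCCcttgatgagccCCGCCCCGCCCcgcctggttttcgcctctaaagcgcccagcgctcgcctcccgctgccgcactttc

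Ackr3 had 1 GC box 68 bases before the start and the TATA form 8 bases before it. Cxcl12 had 5 GC boxes, at 187, 86, 33, 16 and 11 bases before the start, of which the last 2 overlap by 1 base, and no TATA form. The GC box form stood in 35.7% of the 32851 promoter windows and in 8 of the 41 member windows. The TATA form stood in 13.6% of windows and in 13 of the 41. These are matches of letters and not binding sites.

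The second set holds the NF-kB form, which is GGG and TTTCC with any 2 bases between them, marked in capitals on either strand. It is shown for the nearby chromosome 5 genes Cxcl1 (chr5:90891135-90891244), Cxcl2 (chr5:90903789-90903898) and Cxcl3 (chr5:90785991-90786100), each as the 110 bases before the start on the plus strand, and for 120 bases of the Ccr3 window (chr9:124021781-124021900, plus strand). For Cxcl10 (chr5:92349060-92349119, minus strand) 60 bases are printed, with the interferon element form, which is GAAA, any 2 bases and GAAA again, in capitals.
Cxcl1: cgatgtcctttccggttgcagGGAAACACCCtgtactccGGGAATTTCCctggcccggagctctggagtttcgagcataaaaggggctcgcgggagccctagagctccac
Cxcl2: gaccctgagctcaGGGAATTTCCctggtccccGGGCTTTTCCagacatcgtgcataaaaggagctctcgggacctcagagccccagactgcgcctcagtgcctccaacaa
Cxcl3: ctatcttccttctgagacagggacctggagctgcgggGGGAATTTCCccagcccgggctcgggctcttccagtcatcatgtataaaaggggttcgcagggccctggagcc
Ccr3: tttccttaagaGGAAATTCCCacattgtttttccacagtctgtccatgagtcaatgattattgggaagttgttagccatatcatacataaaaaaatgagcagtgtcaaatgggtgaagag
Cxcl10: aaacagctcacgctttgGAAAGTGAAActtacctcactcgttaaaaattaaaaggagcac

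The NF-kB form occurred in 1.63% of all windows and in those of 6 members, Ccl20, Ccl9, Ccr3, Cxcl1, Cxcl2 and Cxcl3. Cxcl1 carried it at 89 bases (minus strand) and 71 bases before the start, Cxcl2 at 97 and 78, Cxcl3 at 73 and Ccr3 at 179 (minus strand). The interferon form occurred in 3.44% of all windows and in those of Ccl19, Cxcl10 and Cxcl14, in Cxcl10 at 213 bases before the start. In none of these windows did different motif forms overlap.

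All 4 atypical receptors were lower in both metformin samples than in both control samples, by 1.64-fold to 3.28-fold, and so was Cxcl12, by 4.26-fold. Cxcl14, a CXC chemokine of epithelial and stromal cells, was lower by 2.42-fold. These were the 6 members without overlap in the lower direction. None passed the adjusted test (adjusted p = 0.9996 for each in limma). Among all genes tested, 8.46% were lower without overlap and 12.5% higher, against 6 and 4 of the 40 members.

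Ackr3, which scavenges Cxcl12, had little spread within either group. Its levels were -5.78 and -5.76 in metformin samples, against -4.02 and -4.09 in controls. The spots read 15.8 and 19.7 intensity units with metformin and 56.5 and 85.2 units in controls, before scaling between arrays. The samples of a group lay close together and the groups lay far apart, so that leaving out any 1 array moved the difference of -1.71 ± 0.28 only between -1.75 and -1.68. Its 95% interval ran from -2.45 to -0.98 with an unadjusted p of 0.0024 in limma.

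Cxcl12, the stromal ligand of Cxcr4 and Ackr3, read -4.01 and -5.53 in metformin samples and -2.05 and -3.30 in control samples. Both metformin values were below both control values, with metformin 2 lowest and control 1 highest. The difference was -2.09 ± 0.72 (95% interval -4.00 to -0.18, unadjusted p = 0.0381), and a second Cxcl12 probe, for another transcript form, gave -1.90. Without single arrays it ranged from -2.85 to -1.33. Its signalling receptor Cxcr4 read -2.96 and -2.86 with metformin, against -4.23 and -2.53 in controls, and the control samples enclosed both metformin samples. The Cxcr4 difference was 0.47 ± 0.63, with a 95% interval from -1.23 to 2.16, and -0.38 without control 1.

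Ackr2 degrades inflammatory CC chemokines and is known from lymphatic endothelium. It read -5.11 and -5.64 in metformin samples, against -4.59 and -3.57 in controls, without overlap. Control 2 was highest, and without that array the difference of -1.29 ± 0.47 was -0.78. Ackr4 removes the lymphoid chemokines Ccl19, Ccl21 and Ccl25. It read -4.42 and -4.16 with metformin and -3.38 and -3.78 in controls, a difference of -0.71 ± 0.32. Both groups held together, and the value stayed between -0.91 and -0.51 without any 1 array.

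Ackr1, the Duffy receptor of red cells and venules, read -6.47 and -6.66 in metformin samples, against -4.80 and -6.40 in controls. Control 1 stood alone above the other arrays, so that the difference of -0.96 ± 0.61 came to -0.16 without it. Cxcl14 read -0.39 and 0.24 with metformin and 0.42 and 1.98 in controls, a difference of -1.27 ± 0.63. Here control 2 was the high array, and without it the difference was -0.49. The unadjusted p of Ackr2 was 0.0473 in limma, and those of Ackr4, Cxcl14 and Ackr1 were 0.0813, 0.106 and 0.183. Ackr3, Cxcl12 and Ackr2 were the 3 members lower at an unadjusted p under 0.05, where 1.25% of all genes were. With Cxcl14 they made 4 members lower by at least 2-fold without overlap, against 2.31% of all genes. All these spots were dim but for Cxcl14, and with normexp background correction the differences of Ackr3, Cxcl12, Ackr2, Ackr4 and Ackr1 were -0.47, -1.10, -0.32, -0.25 and -0.095.

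**Figure D1:**
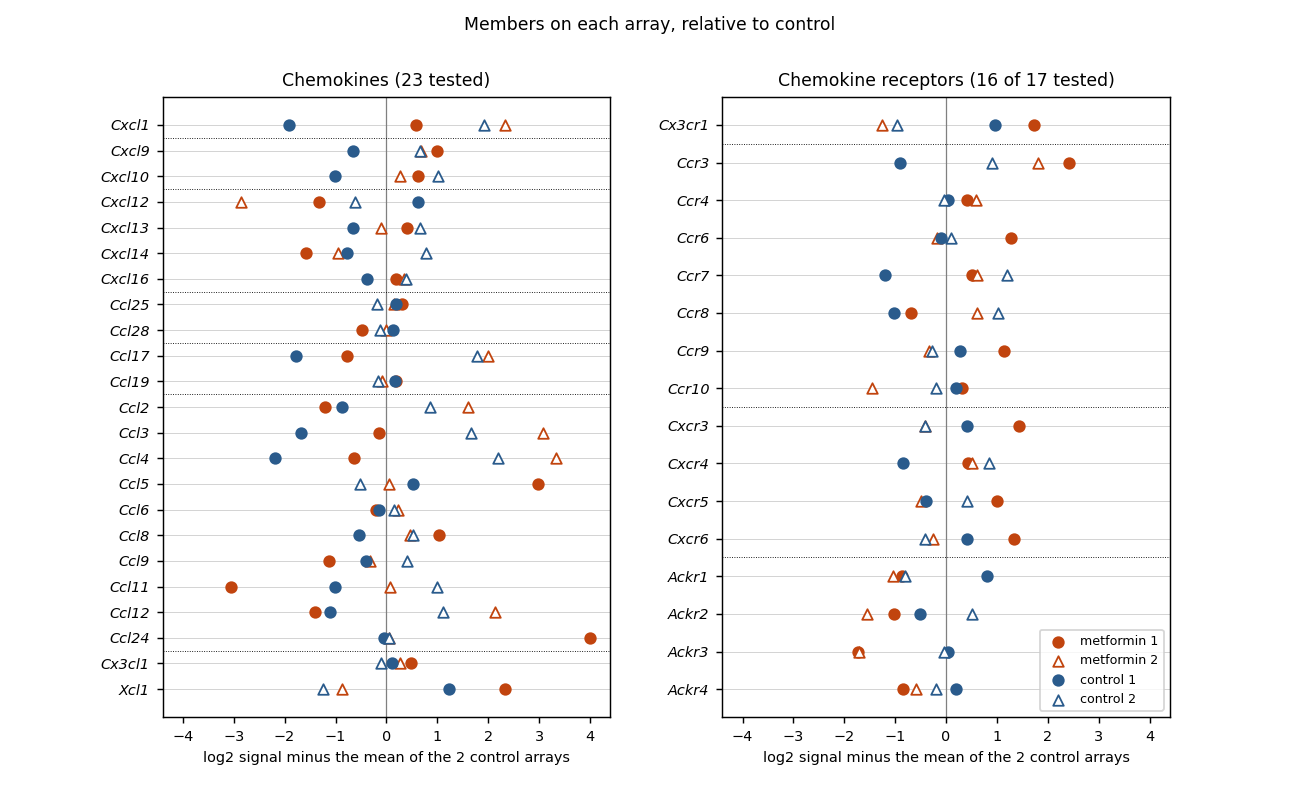
The 23 tested chemokines (left) and 16 of the 17 tested receptors (right) on the 4 arrays, as log2 signal minus the mean of the 2 control arrays; orange marks are metformin samples, blue marks controls, circles sample 1 and triangles sample 2, and dotted lines part the subfamilies. Both Ackr3 metformin marks lie at the left of their row with the controls close to 0, while in many ligands, such as Ccl4, the triangles lie right of the circles in either group.

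Markers of stromal and endothelial cells were mostly lower on the same arrays. Among all genes tested, 57.9% were higher and 8.46% lower without overlap. All 10 fibroblast markers were lower with metformin without overlap, with a median difference of -2.08, and their summed signal in units of each array's 75th percentile was 9.76 and 5.07 in metformin samples, against 41.84 and 19.97 in controls, with none at background. Of 8 tested blood vessel markers 6 were lower without overlap (median -1.13), Cdh5 among them at -1.71 ± 0.37, and Tek was at background. The summed signal of the blood vessel list overlapped, at 5.61 and 4.22 with metformin and 6.45 and 4.80 in controls. Of 4 tested lymphatic markers 3 were lower (median -0.82), with Mmrn1 at -2.90 ± 0.46, Flt4 and Reln at background, and sums of 0.40 and 0.66 with metformin, against 0.86 and 1.51 in controls. The 7 smooth muscle markers were lower (median -3.16, sums 4.23 and 5.49 with metformin, 130.88 and 6.51 in controls), with control 1 far above the other arrays, as for Ackr1, and Myocd and Lmod1 at background. The part of these cells in the lower Cxcl12 and atypical receptor levels was not tested. In whole ileum, fewer cells of a type and less RNA per cell cannot be told apart.

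**Figure D2:**
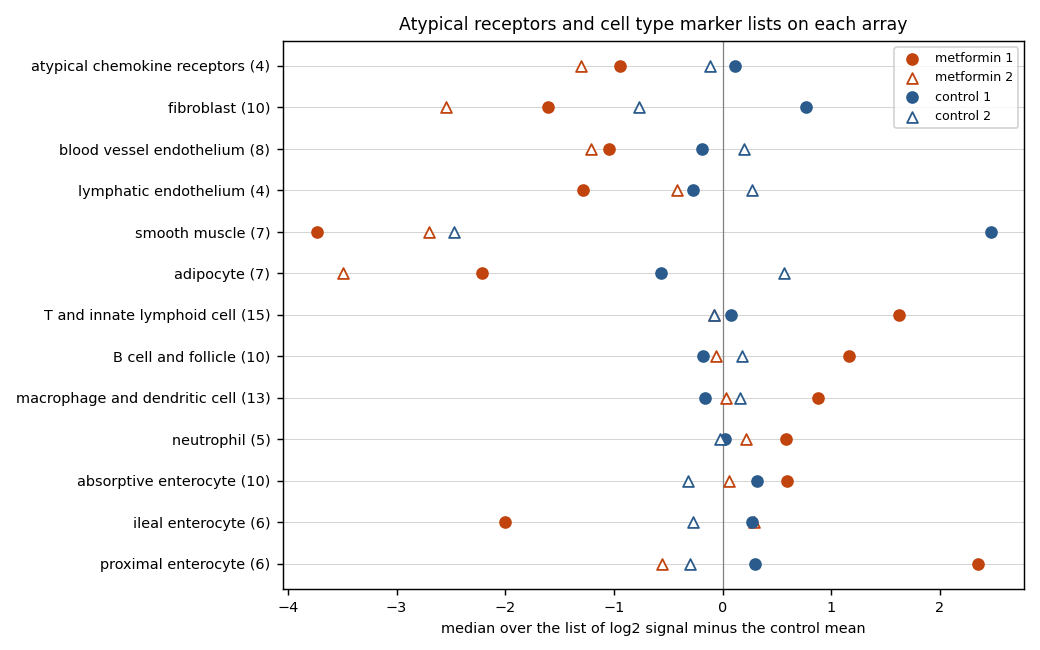
Median over each gene list of log2 signal minus the control mean (horizontal axis), for the 4 tested atypical receptors and 12 lists of cell type markers, with the number of tested genes in brackets; orange marks are metformin samples and blue marks controls, circles sample 1 and triangles sample 2. The atypical receptors, fibroblast and blood vessel lists have both metformin samples left of both controls, whereas the T cell, ileal and proximal lists have metformin 1 away from the other arrays.

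The gut-homing chemokines Ccl25 and Ccl28 overlapped between the groups. Ccl25, the thymus-expressed chemokine that retains lymphocytes in the small bowel, read 7.23 and 7.07 in metformin samples and 7.12 and 6.74 in control samples. The groups overlapped, and the difference of 0.22 ± 0.31 had a 95% interval from -0.60 to 1.04 and was 0.032 without control 2. A second Ccl25 probe, for a non-coding transcript, had the opposite sign at -0.16. Its receptor Ccr9 read -2.61 and -4.07 with metformin, against -3.47 and -4.01 in controls, a difference of 0.40 ± 0.59 that was -0.33 without metformin 1.

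Ccl28, the mucosal chemokine that attracts IgA plasma cells, read -0.67 and -0.19 in metformin samples, against -0.05 and -0.32 in controls, a difference of -0.24 ± 0.33 (95% interval -1.12 to 0.64) that was near 0 without metformin 1. Its receptor Ccr10 differed by -0.57 ± 0.67 (0.32 without metformin 2), with metformin 2 lowest at -6.37 and the other arrays between -5.12 and -4.60. Neither gene separated the groups. Plasma cell markers were lower for 5 of 6 genes, where 57.9% of all genes were higher. Their median was -0.38, with sums of 11.7 and 11.0 with metformin and 13.4 and 13.8 in controls, and their part was not tested. Ccl20, the ligand of Ccr6 over lymphoid follicles, was at background on all 4 arrays.

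The membrane-bound chemokines of the epithelium are Cx3cl1, or fractalkine, and Cxcl16. Cx3cl1 read 4.30 and 4.06 in metformin samples and 3.91 and 3.71 in controls, without overlap. The difference was 0.37 ± 0.29, with a 95% interval from -0.41 to 1.16, and it lay between 0.26 and 0.49 without any 1 array. Of the absorptive enterocyte markers 10 of 10 were higher too, with a median of 0.41, where 57.9% of all genes were higher. What these markers contribute to Cx3cl1 was not tested. Cxcl16 read 0.99 and 1.15 with metformin, against 0.43 and 1.19 in controls, which enclosed both metformin values (0.26 ± 0.38, 95% interval -0.75 to 1.28).

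Their receptors followed the sample number. Cx3cr1, the fractalkine receptor of mononuclear phagocytes, read -0.62 and -3.61 in metformin samples and -1.38 and -3.30 in control samples. Both samples 1 lay above both samples 2, and the treatment difference was 0.23 ± 1.23, or -1.26 without metformin 1. Cxcr6, the Cxcl16 receptor of T cells, read -1.69 and -3.29 with metformin and -2.62 and -3.44 in controls, again with samples 1 on top, and differed by 0.54 ± 0.66 (-0.26 without metformin 1).

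Several inflammatory chemokines, like most genes tested, varied more between sample numbers than between treatments. In 14 members, among them Ccl2, Ccl3, Ccl4, Ccl11, Ccl12, Ccl17 and Cxcl1, both samples numbered 2 lay above both samples numbered 1, with a median gap of 2.03 on the log2 scale. In 9 members, among them Ccl5, Xcl1, Cxcr3, Cxcr6, Ccr9 and Cx3cr1, they lay below, with a median gap of 1.21. The shares among all genes were 27.6% above and 38.2% below. In 27 of the 40 members the gap between sample numbers exceeded the treatment difference, against 72.4% of all genes.

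Ccl3 and Ccl4, the macrophage inflammatory proteins that attract leukocytes, are neighbours on chromosome 11. Ccl3 read -3.73 and -0.51 in metformin samples, against -5.26 and -1.92 in controls. Ccl4 read -3.27 and 0.69 with metformin, against -4.82 and -0.45 in controls. Within each number the metformin sample was the higher one, yet sample 2 of the controls lay above sample 1 of the metformin group in both genes. The differences of 1.47 ± 1.58 and 1.34 ± 2.00 changed sign without control 1, to -0.20 and -0.84.

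In Ccl2, Ccl12, Ccl11 and Ccl17, which attract monocytes, eosinophils and T cells, both samples 2 also lay above both samples 1. Ccl2 read -6.13 and -3.31 with metformin and -5.78 and -4.05 in controls, a difference of 0.20 ± 1.15 that was -1.21 without metformin 2. The nearby Ccl12 differed by 0.36 ± 1.43, and Ccl11, or eotaxin, by -1.49 ± 1.27 with metformin samples at -6.06 and -2.95 and controls at -4.02 and -2.01. Without metformin 1 the Ccl11 difference came to 0.06. Ccl17, a chromosome 8 gene that attracts Ccr4-bearing T cells, read -2.98 and -0.21 with metformin and -3.99 and -0.42 in controls (0.61 ± 1.54). None of these 4 genes separated the treatment groups.

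Neutrophil-attracting CXC chemokines were mostly at background. Cxcl1, whose NF-kB forms are printed above, read -5.96 and -4.21 in metformin samples, against -8.45 and -4.62 in controls, and was well above background on 1 of 2 control arrays. Control 1 was the lowest array and the difference of 1.45 ± 1.44 came to -0.46 without it. Cxcl2 and Cxcl5 were well above background on 1 metformin and 1 control array, Cxcl3 on 1 metformin array and Cxcl15 on none. Cxcl2 levels were -7.15 and -3.90 with metformin and -7.73 and -5.60 in controls, again with both samples 2 on top. The receptors Cxcr1 (1 metformin array) and Cxcr2 (none) were at background too. Of the neutrophil markers, S100a8 and Ngp were at background and the 5 tested had sums of 62.3 and 54.2 with metformin, against 53.1 and 51.7 in controls. Of these 5, 4 were higher and 2 of them without overlap, where 57.9% of all genes were higher and 12.5% higher without overlap. S100a9, a calcium-binding protein of neutrophils, read -5.21 and -2.90 with metformin and -7.46 and -5.33 in controls, with 1 control array not well above background. It thus entered the test through the metformin samples, where it was high, so its lack of overlap supports nothing. The part of neutrophils in the Cxcl1 levels was not tested.

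Ccl6, Ccl9 and Ccl8, further CC chemokines of myeloid cells, overlapped between the groups. Ccl6, a mouse chemokine of myeloid cells, read 4.86 and 5.29 in metformin samples and 4.90 and 5.21 in controls, which overlap closely (0.02 ± 0.33, 95% interval -0.85 to 0.89). The nearby Ccl9, also of myeloid cells, read -0.21 and 0.60 with metformin, against 0.53 and 1.32 in controls, and differed by -0.73 ± 0.47, between -1.13 and -0.32 without any 1 array. Metformin 2 lay just above control 1, so the groups overlapped, although the metformin sample was the lower one within each sample number. Ccl8 read -4.36 and -4.94 with metformin and -5.93 and -4.86 in controls, with control 1 as the low array (0.74 ± 0.49, and 0.21 without it).

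Genes of cytotoxic and memory T cells were highest in metformin 1. Ccl5, released by activated T cells and NK cells, read 2.80 and -0.13 in metformin samples, against 0.35 and -0.70 in controls. Metformin 1 stood far above the other arrays, and without it the difference of 1.51 ± 1.08 came to 0.05. Xcl1, the lymphotactin of NK and CD8 T cells, read -1.92 and -5.13 with metformin and -3.02 and -5.50 in controls (0.73 ± 1.39, and -0.87 without metformin 1). Its receptor Xcr1 was at background on all 4 arrays. Cxcr3, the receptor for Cxcl9 and Cxcl10, read -3.56 and -5.41 with metformin, against -4.59 and -5.41 in controls, a difference of 0.51 ± 0.73 that was -0.41 without metformin 1.

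The T and innate lymphoid markers had that layout as a list. All 15 tested were higher with metformin, with a median of 0.73, but the median per array was 1.63 above the control mean in metformin 1 and -0.08 in metformin 2. Their summed signal was 87.6 and 22.5 with metformin and 37.8 and 18.7 in controls. None of the 15 was at background. The B cell markers had sums of 10.6 and 4.72 with metformin, against 4.32 and 5.90 in controls, and the macrophage and dendritic list 10.6 and 8.23 with metformin, against 6.13 and 10.9 in controls. All 10 tested B cell markers were higher (median 0.49, 1 without overlap), as were 12 of 13 macrophage and dendritic markers (median 0.42, 3 without overlap, with Adgre1 at 0.67 ± 0.36 and Mrc1 at 0.48 ± 0.30). Among all genes tested, 57.9% were higher and 12.5% higher without overlap. What the cells of these lists contribute to the chemokine levels was not tested. Of all 40 members, 16 were highest in metformin 1 and 8 in metformin 2, against 5 in control 1 and 11 in control 2, and of all genes 38.5%, 20.2%, 21.9% and 19.4% in the same order of arrays.

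Ccl24, or eotaxin-2, was high on 1 array. It read -0.55 in metformin 1 and -4.50 in metformin 2, against -4.59 and -4.49 in controls, so 3 of the 4 arrays were alike. The difference of 2.02 ± 1.36 was 0.04 without metformin 1 and 3.99 without metformin 2. Ccl26, its neighbour on chromosome 5, was at background on all 4 arrays.

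Ccr3, the eotaxin receptor of eosinophils, was the member with the lowest unadjusted p among those higher with metformin. It read -4.59 and -5.20 in metformin samples, against -7.90 and -6.11 in controls, or 35.9 and 29.0 intensity units with metformin and 3.82 and 21.0 units in controls. All values were dim, control 1 was not well above background, and the groups did not overlap. The fitted difference was 2.11 ± 0.69, with an adjusted p of 0.9996 in limma, and it was 1.22 without control 1 and 0.56 with normexp background correction. Ccr3 was the 1 member higher at an unadjusted p under 0.05, where 0.351% of all genes were, and the 1 member higher by at least 2-fold without overlap, against 0.633%. It entered the test through the metformin samples, where it was high, so these counts support nothing. With all 4 arrays required above background Ccr3 dropped out and both counts were 0. Of the mast cell and eosinophil markers, Siglecf read 0.31 and -0.09 with metformin and -0.0047 and -0.39 in controls, Epx and Cpa3 were at background, and the 6 tested had a median of 0.12 and sums of 1.85 and 1.66 with metformin, against 1.5 and 1.54 in controls. Their part in the Ccr3 levels was not tested.

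The receptors of helper T cells were also dim or overlapping. Ccr4, the receptor of Ccl17 and Ccl22, read -6.74 and -6.56 in metformin samples and -7.11 and -7.18 in controls, without overlap, and was well above background on 1 of 2 control arrays. Its spots read only 6.64 to 11.3 intensity units over the 4 arrays, it too entered the test through the metformin samples, and the fitted difference was 0.49 ± 0.28. Ccr8, a receptor of Th2 and regulatory T cells, read -4.80 and -3.50 with metformin, against -5.13 and -3.09 in controls, and followed the sample number (-0.05 ± 0.86). Ccl22 was at background, with 1 metformin array above it.

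Cxcl9 and Cxcl10, the interferon-induced ligands of Cxcr3, lie close together on chromosome 5. Cxcl9 read -3.12 and -3.43 in metformin samples and -4.76 and -3.45 in control samples, and a second probe had the same sign at 0.65. The groups did not overlap, but metformin 2 and control 2 were almost equal, and the difference of 0.83 ± 0.53 was 0.18 without control 1. Cxcl10, whose interferon form is printed above, read 0.12 and -0.25 with metformin, against -1.53 and 0.50 in controls, which lay on either side (0.45 ± 0.75, and -0.57 without control 1). With Cx3cl1, Ccr3 and Ccr4, Cxcl9 completes the 4 members higher without overlap, of which 2 were left when all 4 arrays had to be above background.

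Chemokines of lymphoid follicles overlapped between groups. Cxcl13, the B cell attractant, read -1.40 and -1.91 in metformin samples, against -2.45 and -1.14 in controls, a difference of 0.14 ± 0.54. Its receptor Cxcr5 read -1.40 and -2.90 with metformin and -2.81 and -2.00 in controls (0.26 ± 0.63, and -0.49 without metformin 1). In Cxcl13 the controls enclosed the metformin samples, and in Cxcr5 the metformin samples enclosed the controls. Ccl19, the ligand of Ccr7 in T cell zones, read -3.71 and -3.98 with metformin and -3.74 and -4.06 in controls, a difference of 0.05 ± 0.31 (95% interval -0.77 to 0.88), and its other probes gave 0.39 and -0.14.

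Ccr7, which takes dendritic cells and naive T cells to lymph nodes, read -1.14 and -1.03 in metformin samples, against -2.84 and -0.44 in controls. Control 1 was the low array, and the difference of 0.55 ± 0.85 was -0.65 without it. Ccr6, on B cells and Th17 cells, read -0.32 and -1.77 with metformin and -1.70 and -1.49 in controls (0.55 ± 0.56, and -0.18 without metformin 1). Neither gene separated the groups.

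**Figure D3:**
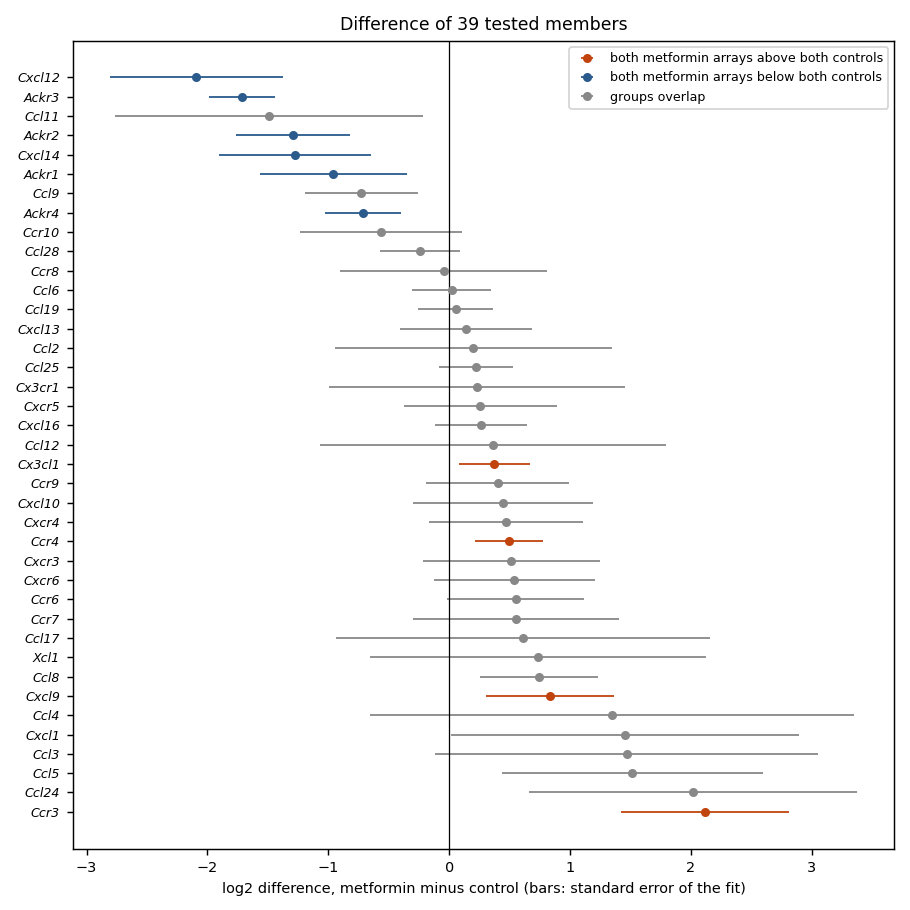
Difference of 39 tested members (metformin minus control, log2, horizontal axis) with the standard error of the limma fit as a bar, sorted from lowest to highest; orange points have both metformin arrays above both controls, blue points have both below, and grey points overlap. The 6 blue points are Cxcl12, Ackr3, Ackr2, Cxcl14, Ackr1 and Ackr4, and the 4 orange points are Cx3cl1, Ccr4, Cxcl9 and Ccr3.

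As a family the tested members had 29 differences above 0 and 11 below, where 57.9% of all genes were above 0. The T cell, B cell and macrophage lists, with 15 of 15, 10 of 10 and 12 of 13 markers higher, had the same direction, and their part was not tested. The median difference was 0.37 over the members and 0.06 over all genes. For ligands it was 0.36 (18 higher, 5 lower) and for receptors 0.39 (11 higher, 6 lower). All 4 typical CXC receptors tested and 6 of 8 CC receptors had positive differences, against 0 of 4 atypical receptors. Each of these CXC receptors changed sign without 1 of the arrays, and their median of 0.49 was -0.34 without metformin 1. The median moved with single arrays, to -0.18 without control 1 and 0.55 without control 2. The sign held without each array in turn in 16 of the 40 members, 8 lower and 8 higher. This was not counted over all genes, so it cannot be read as a trait of the members. Ccr3 and Ccr4, which entered the test through the metformin samples, are among the 8 higher.

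**Figure D4:**
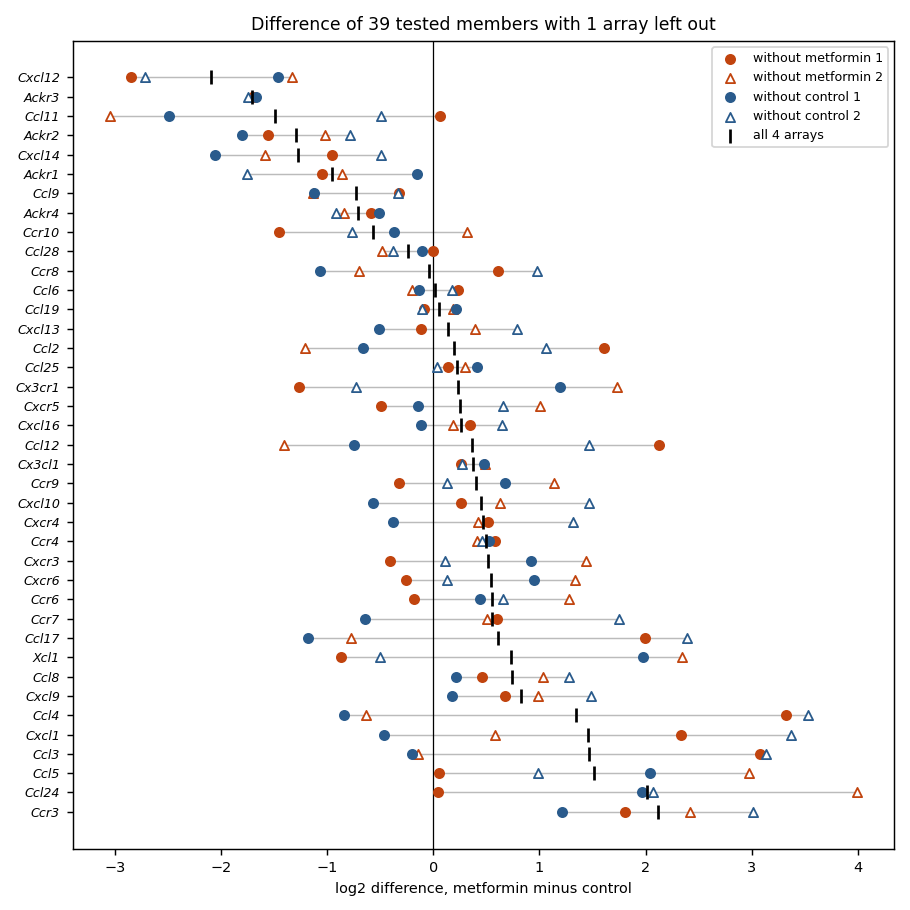
Difference of 39 tested members (metformin minus control, log2, horizontal axis) from all 4 arrays (black bars) and with 1 array left out; orange marks leave out a metformin sample and blue marks a control, circles sample 1 and triangles sample 2. The marks of Ackr3 nearly coincide, whereas those of Ccl4, Ccl3, Cxcl1, Ccl12 and Ccl2 spread over both sides of 0.

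The genes around the chemokine system did not pass the adjusted test either. Of 35 genes that signal below chemokine receptors, all tested, 28 were higher and 7 lower, with a median of 0.20 and 5 higher without overlap. Among all genes tested, 57.9% were higher and 12.5% higher without overlap. Ptk2b, a calcium-dependent kinase, was 0.36 ± 0.29, Was, a regulator of actin in leukocytes, 0.58 ± 0.49, and Rac2, a leukocyte GTPase, 0.56 ± 0.51. Of 17 cytokines that induce chemokines, 9 were at background, Ifng, Il17a and Il6 among them. Of the 8 tested, 7 were higher and 3 of them without overlap, beside the same shares of all genes (57.9% and 12.5%).

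Il33, an epithelial and stromal alarmin, read 1.02 and -0.75 in metformin samples, against -1.55 and -1.10 in controls, a difference of 1.46 ± 0.67, with metformin 1 well above the other arrays. Il1b, an NF-kB-induced cytokine of myeloid cells, was higher by 1.48 ± 0.78 and Il4, which induces eotaxins, by 1.07 ± 0.47. Il4 was not well above background on 1 control array, so it entered the test through the metformin samples, where it was high. Its lack of overlap thus supports nothing. All 3 cytokines had groups apart but an adjusted p of 0.9996 in limma.

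Of the 15 members at background, Ccl1, Ccl20, Ccl26, Ccr2, Cxcl15, Cxcl17, Cxcr2 and Xcr1 were well above background on no array. Ccl22, Ccr1, Cxcl3 and Cxcr1 passed on 1 metformin array, and Ccl7, Cxcl2 and Cxcl5 on 1 metformin and 1 control array. Ccl7, the neighbour of Ccl2, read -8.12 and -3.76 with metformin and -7.54 and -4.76 in controls, with both samples 2 high. Ccr1 and Ccr2, receptors of monocytes, were thus at background while Ccl2, a ligand of Ccr2, was not. Members with near-identical relatives, such as Cxcl1, Cxcl2 and Cxcl3, can share signal between probes, and this was not tested.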

How the data were processed

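Ileal RNA of 4 samples was labelled with Cy3 and hybridised to single-colour Agilent arrays. The deposited scanner files hold spot intensity on a linear scale from Agilent Feature Extraction 10.7.3.1, per the file headers, with the background subtracted within each array and no scaling between arrays. The authors' deposited table of the whole series holds an intensity equal to the raw median spot signal, with column medians of 78 and 87 (metformin) and 91 and 112 (control), and 6 empty columns that were not used.

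Each array's processed signal was divided by its 75th percentile before taking log2 (864 and 1067 units in metformin samples, 915 and 1453 in controls). Flagged spots were left out and spots of a probe averaged. Of 39429 probes, 39382 were usable on every array. Accessions were matched to RefSeq GRCm38.p6, giving 27470 probes 1 symbol and 11912 none. The headers name mm9, so only the promoter windows carry coordinates. The filter kept 26440 probes that were well above background in both samples of either group, and the brightest kept probe of a gene was tested. Between 65.1% and 69.1% of probes were well above background on an array, and no spot was saturated. The number of arrays limits the precision.

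Groups were compared in 1 fit over all genes in limma 3.58.1 (lmFit, eBayes; R 4.3.3), two-sided, with Benjamini-Hochberg adjustment over 21648 genes and unnamed transcripts. The fit had 2 residual degrees of freedom and a prior of 2.43. It was also run on simulated data with independent errors between arrays. The arrays here share variation by sample number, so that run cannot show how well the fit suits them. Overlap means that the ranges of the groups cross. Values on every array are printed for members without overlap, for the 6 of smallest unadjusted p in each direction and for a list of named chemokines. Of other lists at most the 3 genes of smallest p are named. Another tested receptor, counted among the 40, is not reported here. The members and the lists were chosen with earlier results of these data known. Alternatives were the background correction, the scaling, the filter, the probe rule, flagged spots, the deposited table, the limma options, a block for sample numbers and leaving out each array.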

Additional observations from a re-analysis of the deposited data

How the results depend on the processing

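No setting gave a member or a gene past an adjusted p of 0.05 in limma, and genes at an unadjusted p under 0.05 numbered 116 to 1539 over the settings. Ackr3, Ackr2 and Cxcl12 kept their groups apart in all 11 alternatives that used every array. Their differences were -1.71 to -0.47, -1.29 to -0.32 and -2.09 to -1.10, the smallest under normexp correction. Ackr4, Cx3cl1 and Cxcl9 kept theirs apart in 10 of 11, and Ackr1 and Cxcl14 in 9 of 11. The limma options, the block and the filter left the values of these members unchanged, so those settings could not alter the overlap. Nor could the probe rule where a member had 1 kept probe. Ccr3 had its groups apart in all 10 settings in which it was tested (0.53 to 2.24), and Ccr4 in 7 of 10. Both entered the test through the metformin samples, where they were higher, so their counts support nothing. The planned normexp correction on the mean spot signal was not run, as the files give only the median, and the median was used instead, a choice made after seeing the data.

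Members at least 2-fold apart without overlap numbered 1 higher and 4 lower. They were 0 and 2 with normexp and with the deposited table as it stands, 2 lower with that table scaled, 2 higher with quantile scaling or the array median, and 0 higher when all 4 arrays had to be above background. Scaling to the array median put the median of all genes at 0.19 and the unscaled deposited table at -0.17. Signs turned for Ccr10 (0.011) and Ccr8 (0.028) with normexp, for Ccl6 (-0.082) and Ccr8 (0.088) with quantile scaling, for Ccr8 (0.079) with the array median, and under the unscaled deposited values for Ccl19 (-0.19), Ccl25 (-0.022), Ccl6 (-0.22), Ccr4 (-0.0099), Cxcl13 (-0.11) and Cxcr5 (-0.014). The cause was not tested.

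With the sample number as a replicate block, 1539 of 21648 genes had an unadjusted p under 0.05 in limma, against 347 in the main fit. Of the 40 members tested, 2 were higher and 5 lower at that p, with a smallest adjusted member p of 0.631 in limma. The higher were Ccl3 and Ccl4, without Ccr3, and the lower Cxcl12, Ccl9, Cxcl14, Ccl11 and Ackr3, without Ackr2. Samples share only a number in the labels. The deviations of metformin 1 and control 1 correlated at 0.56.

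Leaving out 1 array leaves its group with a lone sample, assumed to vary like the other group. Groups overlap less easily when 1 of them is a lone sample. For these fits, members at least 2-fold apart without overlap were not set beside a share of all genes. Their counts thus cannot be read as a trait of the members. The counts were then 3 to 12 higher and 3 to 8 lower, and the members' median -0.18 to 0.55. Signs turned in 23 of the members reported, over these ranges: Ccl11 -3.05 to 0.064, Ccl12 -1.41 to 2.13, Ccl17 -1.18 to 2.39, Ccl19 -0.11 to 0.21, Ccl2 -1.21 to 1.61, Ccl3 -0.20 to 3.14, Ccl4 -0.84 to 3.53, Ccl6 -0.20 to 0.24, Ccr10 -1.45 to 0.32, Ccr6 -0.18 to 1.28, Ccr7 -0.65 to 1.75, Ccr8 -1.06 to 0.97, Ccr9 -0.33 to 1.13, Cx3cr1 -1.26 to 1.73, Cxcl1 -0.46 to 3.37, Cxcl10 -0.57 to 1.46, Cxcl13 -0.51 to 0.79, Cxcl16 -0.12 to 0.64, Cxcr3 -0.41 to 1.44, Cxcr4 -0.38 to 1.32, Cxcr5 -0.49 to 1.00, Cxcr6 -0.26 to 1.34 and Xcl1 -0.87 to 2.34. The 2 samples per group limit every value, and dim probes such as Ackr1 and Ccr3 lie close to background.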

Other observations

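Chemokine genes whose symbols lie outside the naming rule were also read. Rarres2, or chemerin, an attractant made by stromal and fat cells, read -1.04 and -2.78 in metformin samples, against -0.15 and -0.76 in controls, without overlap (-1.45 ± 0.68, adjusted p = 0.9996 in limma). Its receptor Cmklr1 was at background. Ccrl2, which presents chemerin, read -4.87 and -4.82 with metformin and -4.89 and -4.52 in controls, and overlapped (-0.14 ± 0.30). Ppbp, the platelet chemokine Cxcl7, read -5.84 and -4.59 with metformin, against -7.37 and -4.85 in controls (0.90 ± 0.98).

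The lower genes Cxcl12, Ackr1 to Ackr4 and Rarres2 stood beside adipocyte markers as well as those of fibroblasts and vessels. Of 7 tested adipocyte genes 6 were lower without overlap, where 8.46% of all genes were. The adipocyte genes had a median of -2.78, with Plin4 at -3.61 ± 0.55 and Lep at background. Their summed signal overlapped, at 22.98 and 6.998 with metformin and 13.15 and 12.64 in controls. Their part was not tested.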
